A study of Mus musculus with 2 samples.

Results

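The constitutive proteasome was described through 35 genes, of 12393 measured, in splenic B cells of the mouse, sorted by flow cytometry for IgM and IgD at the surface. Members were all genes named alone by at least 1 probe set whose symbol was Psma, Psmb, Psmc or Psmd followed by a number, except the inducible Psmb8, Psmb9 and Psmb10. They comprised 15 core subunits (Psma and Psmb) and 20 genes of the regulatory particle (Psmc and Psmd). The samples were 2 arrays of wild-type cells whose label gives no genetic modification, called replicate 2 and replicate 1. The study was designed around SRF-deficient cells of the same phenotype, which were not analysed here, so the genotypes were not compared. Strain, sex and age of the mice are not given in the sources used here, nor is whether the samples came from separate animals. The 2 arrays are 1 group, so every difference below is a spread between samples and has no p-value.

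The proteasome degrades proteins that carry chains of ubiquitin. Its core particle is a barrel of stacked rings, with alpha subunits at the outer rings that gate the entry and beta subunits at the inner rings, some of which hold the proteolytic sites. The regulatory particle caps the barrel with a base of ATPases that unfold and thread the substrate, and a lid that removes ubiquitin. In lymphocytes the catalytic beta subunits can be replaced by inducible counterparts, and the resulting immunoproteasome favours peptides for MHC class I. Most subunit genes are expressed in every cell, and their transcription is raised together by the factor NFE2L1 when proteasome activity is limiting.

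The promoters of members were read from RefSeq, which gave 30 windows for 28 of the 35 genes on GRCm38.p6. The 250 bases before each transcription start were searched on both strands for motifs of factors relevant to the study or the family. Psma8, Psmb1, Psmb2, Psmb7, Psmc3, Psmd3 and Psmd7 were not among the genes with a window. The antioxidant response element, the kind of site that NFE2L1 binds, was searched as TGACNNNGC and stood in 5 of 30 windows, against 10.2% of all 32851 windows. The CArG box, the site of SRF, stood in 1 window, of Psma6, against 1.47% of all windows. CCAAT, the letters of the NF-Y site, stood in 11 windows, against 33.8% of all. CCGGAAG, searched for ETS factors, stood in 10 windows, 1 of 12 windows of core genes and 9 of 18 of regulatory particle genes, against 6.91% of all. A match is a run of letters and does not show binding, and no match says only that the letters are absent from these bases.

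Of the windows, 4 are shown, from genes that the results below turn on, each reading toward the transcription start and with the matched motif in capitals. Psmb5 carries an antioxidant response element at positions -47 to -39 relative to the start (chr14:54617996-54618245, minus strand). Psmb3 carries CCAAT at positions -85 to -81 and -43 to -39 (chr11:97703184-97703433, plus strand). Psma6 carries the CArG box at positions -141 to -132 of the window before the outermost of its starts, where it overlaps a CCAAT read on the opposite strand (chr12:55383972-55384221, plus strand). Psmd11 carries CCGGAAG on the opposite strand at positions -11 to -5 (chr11:80428365-80428614, plus strand).
Psmb5: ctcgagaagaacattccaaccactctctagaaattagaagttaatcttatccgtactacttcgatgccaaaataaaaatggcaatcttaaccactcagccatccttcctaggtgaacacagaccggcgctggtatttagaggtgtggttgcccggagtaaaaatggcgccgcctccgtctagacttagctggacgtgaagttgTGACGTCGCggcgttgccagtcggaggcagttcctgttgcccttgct
Psmb3: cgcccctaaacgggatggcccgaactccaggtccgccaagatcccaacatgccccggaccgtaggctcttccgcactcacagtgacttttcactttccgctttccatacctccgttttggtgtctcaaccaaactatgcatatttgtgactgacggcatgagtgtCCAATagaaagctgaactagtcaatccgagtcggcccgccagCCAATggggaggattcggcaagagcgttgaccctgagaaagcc
Psma6: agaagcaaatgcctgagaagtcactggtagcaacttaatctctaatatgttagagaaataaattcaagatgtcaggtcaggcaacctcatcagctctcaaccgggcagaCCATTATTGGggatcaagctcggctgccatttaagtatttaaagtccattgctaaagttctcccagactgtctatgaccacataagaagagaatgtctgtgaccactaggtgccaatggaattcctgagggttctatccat
Psmd11: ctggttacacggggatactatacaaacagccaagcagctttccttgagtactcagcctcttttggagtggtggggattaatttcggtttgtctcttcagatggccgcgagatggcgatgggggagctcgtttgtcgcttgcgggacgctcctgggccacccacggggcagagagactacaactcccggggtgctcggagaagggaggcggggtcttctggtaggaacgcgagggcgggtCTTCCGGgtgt

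Each array gave a signal on a linear scale for 22626 gene probe sets, computed by the authors with MAS5, which scales each array by 1 factor. A floor was set on each array at the 90th percentile of 91 probe sets that report 66 genes specific to organs such as liver, brain or testis, which gave 85.8 on replicate 2 and 182 on replicate 1. A gene was called above both floors when any of its probe sets exceeded the floor of each array, and its values are those of its brightest probe set, that of highest log2 signal averaged over both arrays. Probes bind with unequal affinity, so signals were compared between arrays within a probe set and genes were not ranked by signal. The cells carried the B cell programme, with 8 of 9 B cell markers above both floors, among them Cd22, Cd79b and Ms4a1. Pax5 was below it on both. Markers of T cells, NK cells, monocytes and macrophages, neutrophils and erythroid cells were measured for 27 genes. Of these, 5 were above both floors (Zap70, Csf1r, Lyz2, S100a9 and Ngp), against 28.9% of all genes. By list, 2 of 5 neutrophil markers and 2 of 6 monocyte and macrophage markers passed both floors, shares not below that of all genes. S100a8 and Prf1 passed only the floor of replicate 2, and Ltf and Gata1 only that of replicate 1. The T cell genes Cd3e, Cd3d and Cd3g were below both floors. The summed signal was lower on replicate 2 for T cell markers (527 against 977 on replicate 1), monocyte and macrophage markers (606 against 969), erythroid markers (87.6 against 486) and NK cell markers (282 against 303). Of these markers, 8 of 9, 4 of 6, 2 of 3 and 3 of 4, in that order, were below both floors. The floor was also higher on replicate 1, at 182 against 85.8, and its part in these sums was not tested. The summed signal was higher on replicate 2 for B cell markers (21745 against 17073 on replicate 1), plasma cell markers (2436 against 2272.5) and neutrophil markers (934.5 against 919.8). Among the B cell markers Cd79a went the other way, with 192 on replicate 2 and 2931 on replicate 1, 15.3-fold higher on replicate 1. Of the plasma cell markers, Irf4, Prdm1 and Sdc1 were higher on replicate 1, and Xbp1 and Jchain on replicate 2. Of the neutrophil markers, Ngp and Ltf were higher on replicate 1, and S100a8, S100a9 and Mpo on replicate 2. In the lists with a lower sum on replicate 2, Cd8a, Thy1, Prf1, Nkg7 and Cd68 were higher on replicate 2. The arrays stood apart in other ways. Xist, expressed from the inactive X chromosome of females, gave 15.3 on replicate 2 and 740.4 on replicate 1, and Eif2s3y, on the Y chromosome, gave 249 on replicate 2 and 3.4 on replicate 1. By these 2 genes, replicate 2 read as male and replicate 1 as female, though no label gives the sex. Sex and replicate therefore cannot be told apart. The immediate early gene Fos gave 593 on replicate 2 and 11856 on replicate 1. The ratio of the 3′ to the 5′ control signal of Actb was 8.15 on replicate 2 and 3.57 on replicate 1, and that of Gapdh was at least 9.61 on replicate 2, where its 5′ signal was below the floor, and 1.31 on replicate 1. The part of these differences in the results was not tested.

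Most constitutive proteasome genes were detected in these B cells. Of the 35 members, 26 were above both floors, or 74.3%, against a background of 28.9% of all genes. Taken by itself, replicate 2 had 32 members above its floor, against 49.7% of all genes, and replicate 1 had 26, against 35.6%. Members with 1 and with several probe sets were detected about equally often. Of 18 members with 1 probe set 13 were above both floors, against 20.1% of all such genes, and of 17 members with several probe sets 13, against 42.1%. Core genes were above both floors in 12 of 15 cases and regulatory particle genes in 14 of 20. In bulk RNA, fewer cells expressing a gene and less RNA per cell cannot be told apart.

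Of the 8 genes of the alpha ring, 7 were above both floors, all but the testis-specific Psma8. Psma1 gave 975.5 on replicate 2 against 274 on replicate 1, and was 3.56-fold higher on replicate 2. Psma5 gave 806 on replicate 2 against 260.1 on replicate 1, 3.10-fold higher on replicate 2. Psma3 gave 2553 on replicate 2 against 1154 on replicate 1, which averages 1853 ± 989.5 (SD, n = 2). Psma2 gave 1582 on replicate 2 against 733 on replicate 1. In all, 4 of the 7 detected alpha genes were over 2-fold higher on replicate 2, against 14.8% of all genes above both floors. All 7 lay in the brighter of 2 equal bins by mean log2 signal, where the share of all genes was 26.4%. After quantile normalization only Psma1 and Psma5 of them were over 2-fold higher on replicate 2, against 8.78% of all genes.

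The other alpha genes lay within 2-fold. Psma6, whose promoter holds the CArG box shown above, gave 821 on replicate 2 and 618 on replicate 1. Psma4 gave 335 on replicate 2 and 404 on replicate 1, averaging 369.6 ± 48.6 (SD, n = 2). Psma7 gave 463 on replicate 2 and 549.5 on replicate 1. The remaining alpha gene, Psma8, encodes a testis-specific counterpart of Psma7 that serves in spermatocytes. It gave 4.8 on replicate 2 and 17.4 on replicate 1, far below both floors.

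The beta ring holds the catalytic subunits. Psmb5 encodes the subunit with chymotrypsin-like activity, the main target of proteasome inhibitors such as bortezomib. Its single probe set read 938 on replicate 2 and 139 on replicate 1, above the floor on replicate 2 only. Psmb6, of caspase-like activity, gave 1083 on replicate 2 against 385 on replicate 1 and was 2.81-fold higher on replicate 2. Psmb7, of trypsin-like activity, gave 6.3 on replicate 2 and 126.5 on replicate 1 by its single probe set. It was the only beta gene below both floors. Of the 3 catalytic subunits, therefore, only Psmb6 was above both floors.

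The 4 structural beta subunits were all above both floors. Psmb3 gave 2938 on replicate 2 against 1051 on replicate 1, 2.80-fold higher on replicate 2. Psmb4 gave 1219 on replicate 2 against 616 on replicate 1, just under 2-fold. Psmb1 gave 916 on replicate 2 and 576 on replicate 1, averaging 746 ± 240.3 (SD, n = 2). Psmb2 was the only one lower on replicate 2, with 179.7 on replicate 2 and 347 on replicate 1.

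**Figure D1:**
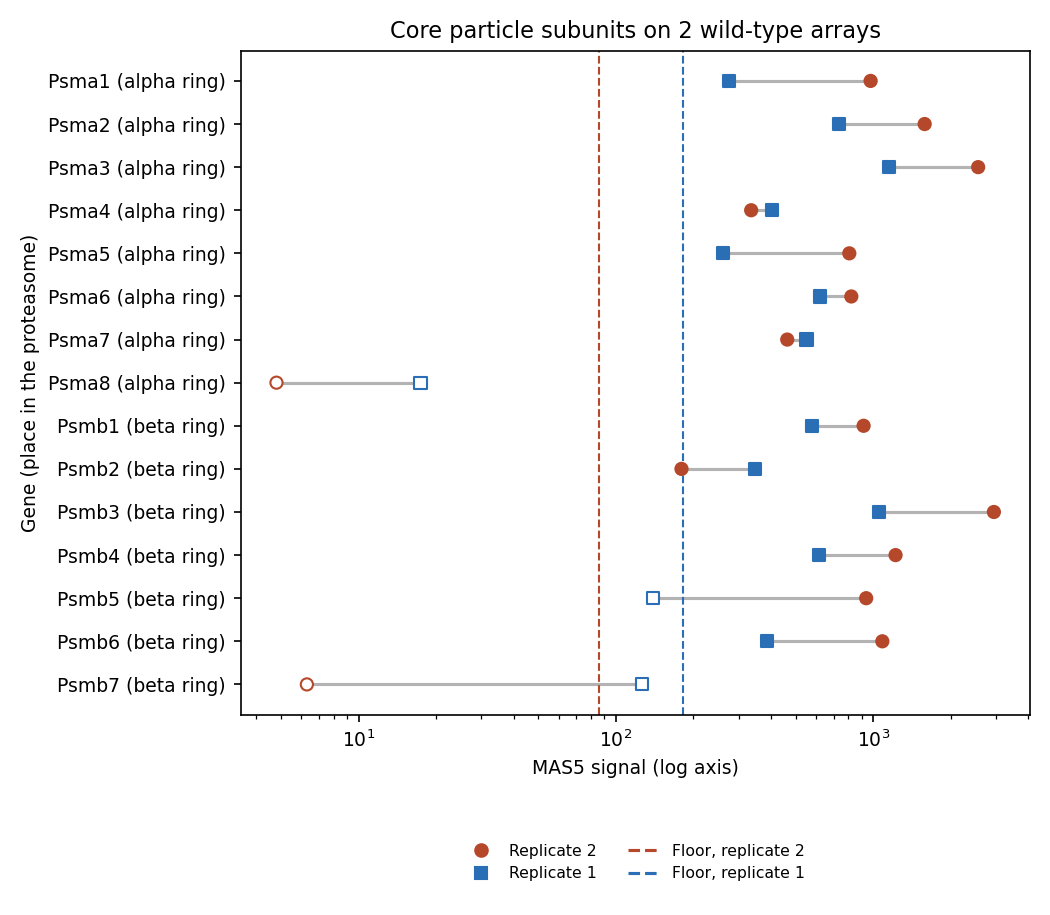
Signal of each core subunit gene (log axis) on replicate 2 (circles) and replicate 1 (squares), by the brightest probe set of each gene, with the floor of each array as a dashed line. Filled symbols lie above the floor of their own array; 9 of the 12 genes above both floors are higher on replicate 2, and Psma8 and Psmb7 lie below both.

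The ATPases form the ring at the base that pulls substrates into the core. Psmc2 gave 1357 on replicate 2 and 705 on replicate 1, within 2-fold. Psmc6 gave 479.6 on replicate 2 and 505 on replicate 1, averaging 492 ± 17.8 (SD, n = 2). Psmc3, whose tail docks into the alpha ring and opens its gate, gave 274.5 on replicate 2 and 194 on replicate 1. Psmc5 went the other way, with 127 on replicate 2 against 320.2 on replicate 1. At 2.53-fold it was the only member above both floors that was over 2-fold higher on replicate 1, and centring on the array median took it within 2-fold. Psmc1 and Psmc4 were above the floor on replicate 2 only. Psmc1 gave 157 on replicate 2 and 91.0 on replicate 1. Psmc4 gave 199.5 on replicate 2 and 162 on replicate 1. Its other probe set, with 177 on replicate 2 and 181 on replicate 1, missed the floor of replicate 1 narrowly.

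Scaffolds and receptors of the base were within 2-fold between the samples as deposited. Psmd1, a large scaffold, gave 389 on replicate 2 and 296 on replicate 1. Psmd2, the other scaffold, gave 261 on replicate 2 and 307 on replicate 1. Psmd4, a receptor that binds ubiquitin chains, gave 457.5 on replicate 2 and 302 on replicate 1. All 3 were above both floors. Centring on the array median put Psmd1 and Psmd4 over 2-fold higher on replicate 2, at log2 differences of 1.03 and 1.23. It did so for 35.1% of all genes above both floors.

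In the lid, 6 of 8 genes were above both floors. Psmd14 encodes the deubiquitinase that cuts the chain from the substrate, and gave 1245 on replicate 2 against 612 on replicate 1, 2.03-fold higher on replicate 2. Psmd11, a lid subunit that also contacts the core, gave 1228 on replicate 2 against 601.5 on replicate 1. These were the only regulatory particle genes above both floors that were over 2-fold higher on replicate 2, and both were within 2-fold when 32 was added to each signal, at log2 differences of 0.99 for each. Psmd6 gave 607 on replicate 2 and 598 on replicate 1, and Psmd12 gave 207 on replicate 2 and 235 on replicate 1. Psmd3 gave 223 on replicate 2 and 313.5 on replicate 1. Psmd13 passed narrowly on replicate 1, since its only probe set above both floors gave 119 on replicate 2 and 187 on replicate 1. The brightest of its probe sets gave 156 on replicate 2 and 152.5 on replicate 1. The lid genes Psmd7 and Psmd8 were above the floor on replicate 2 only. Psmd7, the inactive partner of Psmd14, gave 119.7 on replicate 2 and 30.3 on replicate 1. Psmd8 gave 301.5 on replicate 2 and 132 on replicate 1.

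A further 3 members carry a Psmd name but encode chaperones that help assemble the base and are not part of the finished proteasome. Psmd5 was above both floors, with 456 on replicate 2 and 390.5 on replicate 1. Psmd10, also called gankyrin and located on the X chromosome, gave 156 on replicate 2 and 5.0 on replicate 1. Psmd9 was below both floors, with 12.4 on replicate 2 and 120.2 on replicate 1. With Psma8 and Psmb7 it made up the 3 members below both floors.

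**Figure D2:**
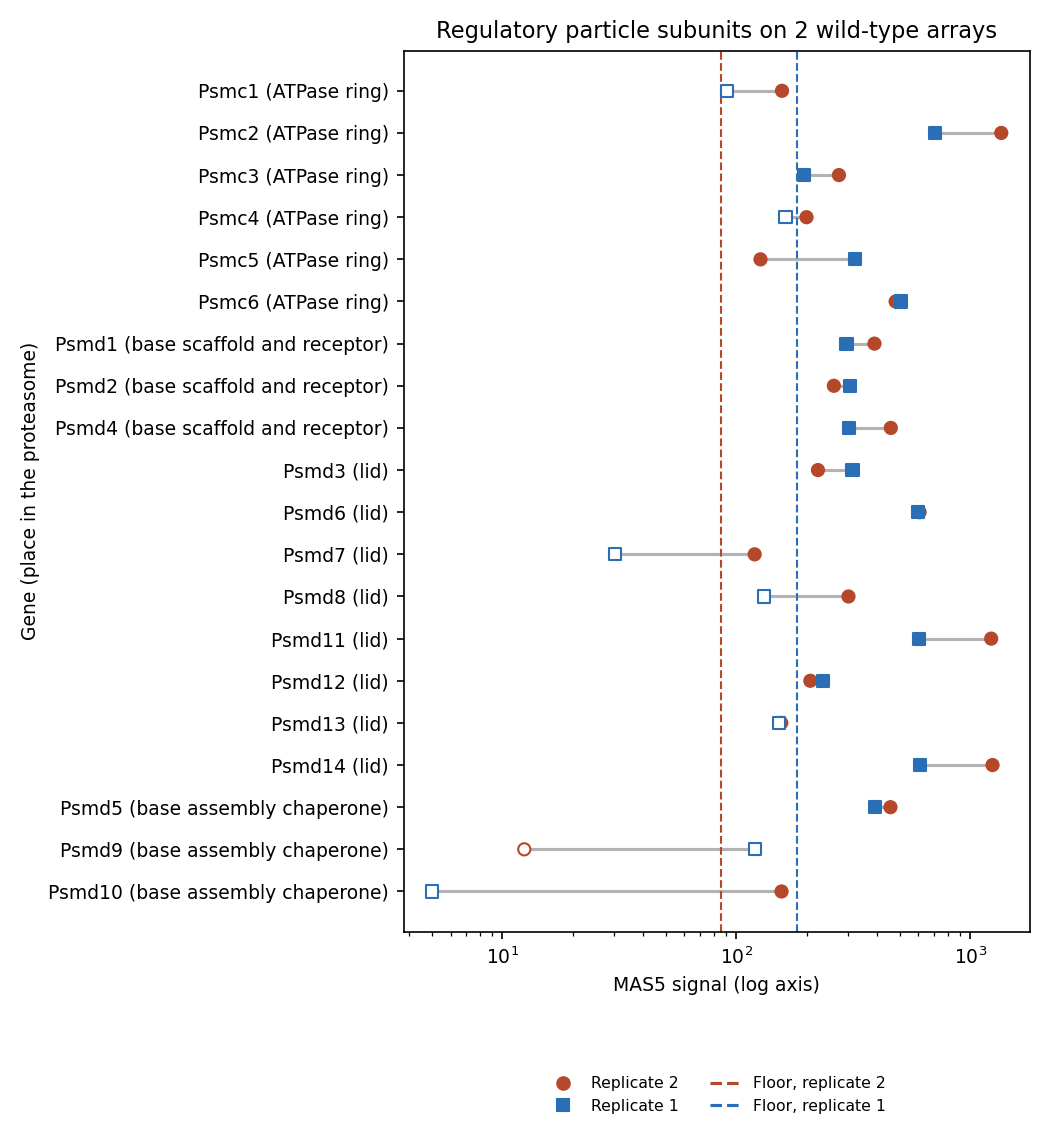
Signal of each regulatory particle gene (log axis) on replicate 2 (circles) and replicate 1 (squares), with the floor of each array as a dashed line and filled symbols above the floor of their own array. The 6 genes above the floor of replicate 2 alone are Psmc1, Psmc4, Psmd7, Psmd8, Psmd10 and, by the probe set drawn, Psmd13, which passed by its other probe set; Psmd9 lies below both floors.

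Among genes above both floors, 9 of 12 core genes were higher on replicate 2, as were 9 of 14 regulatory particle genes, against 49.7% of all genes. Over members above both floors, the median difference in log2 signal, replicate 2 minus replicate 1, was 1.05 for 12 core genes and 0.13 for 14 regulatory particle genes, against -0.01 for all 3578 such genes. In the core 6 genes exceeded a 2-fold difference in favour of replicate 2 and 0 in favour of replicate 1. In the regulatory particle 2 genes were that much higher on replicate 2, and 1 gene on replicate 1. Among all genes above both floors the background was 14.8% in favour of replicate 2 and 14.3% in favour of replicate 1. Over all probe sets above both floors, the spread between the samples (pooled SD of log2 signal) was 0.67, or 1.59-fold. No test of the difference between the core and the regulatory particle is possible with 2 samples of 1 group.

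The scaling of the arrays moved these values. Quantile normalization gave medians of 0.45 for the core, -0.03 for the regulatory particle and -0.13 for all genes. Centring on the array median gave 1.68 for the core, 0.76 for the regulatory particle and 0.62 for all genes. Relative to the median of all genes, the core stood 1.06 higher as deposited, 0.58 after quantile normalization and 1.06 after centring, and the regulatory particle 0.14, 0.10 and 0.14. Core genes over 2-fold higher on replicate 2 numbered 3 after quantile normalization (Psma1, Psma5 and Psmb6), against a background of 8.78%, and 9 after centring, against 35.1%. Regulatory particle genes over 2-fold higher on replicate 2 numbered 0 after quantile normalization and 6 after centring.

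The difference between the arrays also moved with signal, for all genes. The genes above both floors were put in 4 equal bins by mean log2 signal. The median difference was 0.67 in the brightest bin, 0.26 and -0.06 in the middle bins and -0.78 in the dimmest. The floor to pass was 182 on replicate 1 but only 85.8 on replicate 2. A dim gene that passed both was therefore limited in how far it could read higher on replicate 2. The part of this limit in the trend, for all genes and for members, was not tested. Core genes lay mostly in the brighter bins, 7 in the brightest and 4 in the next. There their medians were 1.11 and 0.69, against 0.67 and 0.26 for all genes of these bins. Regulatory particle genes were spread over the bins, with 4 in each of the 3 brighter and 2 in the dimmest. Their medians were 0.98 in the brightest bin, 0.31 in the next, -0.21 in the third and -0.65 in the dimmest. In the brighter of 2 equal bins, 6 of 11 core genes and 2 of 8 regulatory particle genes were over 2-fold higher on replicate 2, against 26.4% of all genes there. The share of the core difference that goes with brightness was not tested.

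**Figure D3:**
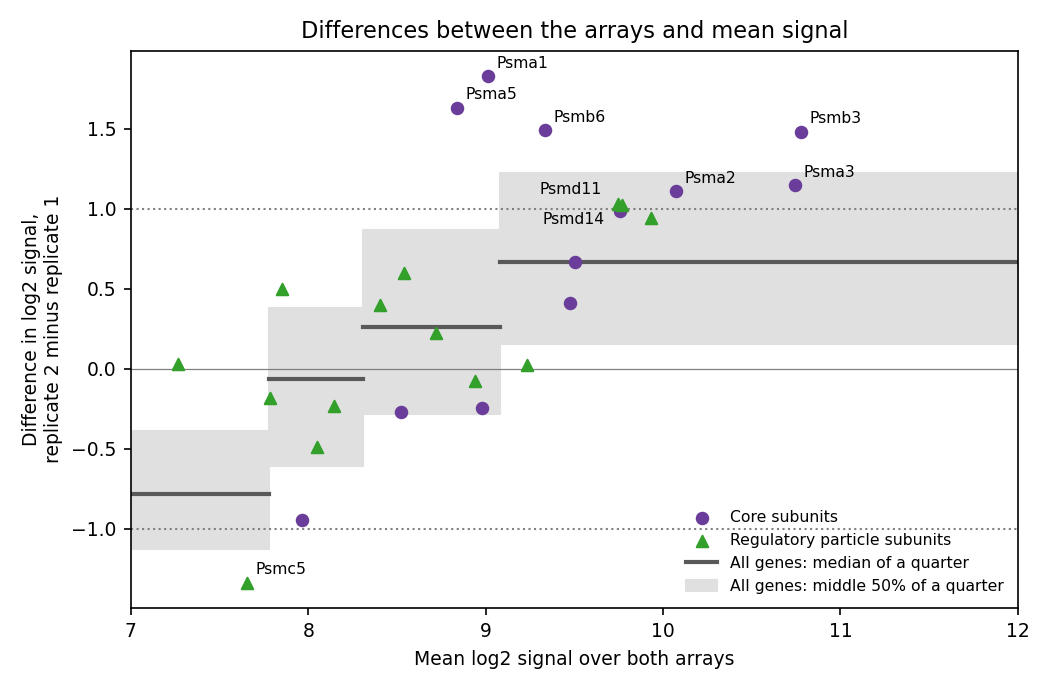
Difference in log2 signal (replicate 2 minus replicate 1) against mean log2 signal for members above both floors, core (circles) and regulatory particle (triangles), over the median (bar) and the middle 50% (grey) of all genes in 4 equal bins, with the brightest bin drawn to 12 on the axis. Dotted lines mark a 2-fold difference, and the median of all genes goes from -0.78 in the dimmest bin to 0.67 in the brightest. The higher floor of replicate 1 limits how far dim genes can lie above 0. The core genes Psma1, Psma5, Psmb6 and Psmb3 and the regulatory particle genes Psmc3 and Psmd13 lie above the grey area of their bins. Psmb2 of the core and Psmc5 and Psmd6 of the regulatory particle lie below it. Psmd13 is drawn by its brightest probe set, which missed the floor of replicate 1.

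Several probe sets of a gene did not always give the same difference. The 35 members had 64 probe sets, of which 33 were above both floors, against 23.2% of all gene probe sets. Among these 33, 22 were higher on replicate 2 and 11 on replicate 1, against 48.2% of all such probe sets higher on replicate 2. Beyond 2-fold there were 10 in favour of replicate 2, against 13.7% of all, and 1 in favour of replicate 1, against 15.5%. In 6 members over 1 probe set was above both floors, and in 3 of them all such probe sets had the same direction. For Psma6, the other probe sets above both floors gave 518 on replicate 2 and 303 on replicate 1, and 756.5 and 237 on these arrays. Both are of the _x_at type, whose probes may match other transcripts. A second probe set of Psmb4, also of the _x_at type, gave 539 on replicate 2 and 191 on replicate 1. It was 2.82-fold higher on replicate 2. The second probe set of Psmb3 gave 295 on replicate 2 and 218 on replicate 1, a smaller difference in the same direction. Without the _x_at type, Psma6 and Psmb4 had no second probe set above both floors, so of these members only Psmb3 could be compared.

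Probe sets above both floors were opposed in Psma7, Psmc2 and Psmd11. For Psma7 the dimmer one gave 367 on replicate 2 and 237 on replicate 1. For Psmc2 it gave 171 on replicate 2 and 246 on replicate 1, so the near 2-fold difference of Psmc2 rested on a probe set of the _x_at type, whose probes may match other transcripts. Psmd11 had 6 probe sets, the most of any member, and its second above both floors gave 519 on replicate 2 and 564 on replicate 1. Of its other probe sets, 4 were below a floor and all higher on replicate 2, by 1.71-fold to 4.43-fold. Other disagreements involved a probe set below a floor. A second probe set of Psma5 gave 991 on replicate 2 and 165 on replicate 1, in the same direction as its brightest. Psmb1, slightly higher on replicate 2 by its brightest, gave 83.9 on replicate 2 and 297 on replicate 1 by another. Psmd4 gave 61.4 on replicate 2 and 225 on replicate 1 by another, and Psmd6 gave 323 on replicate 2 and 63.5 on replicate 1. The other probe sets of Psma1 were below both floors, and those of Psmc6 gave 97.3 on replicate 2 and 7.5 on replicate 1, and 8.8 on replicate 2 and 15.0 on replicate 1.

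**Figure D4:**
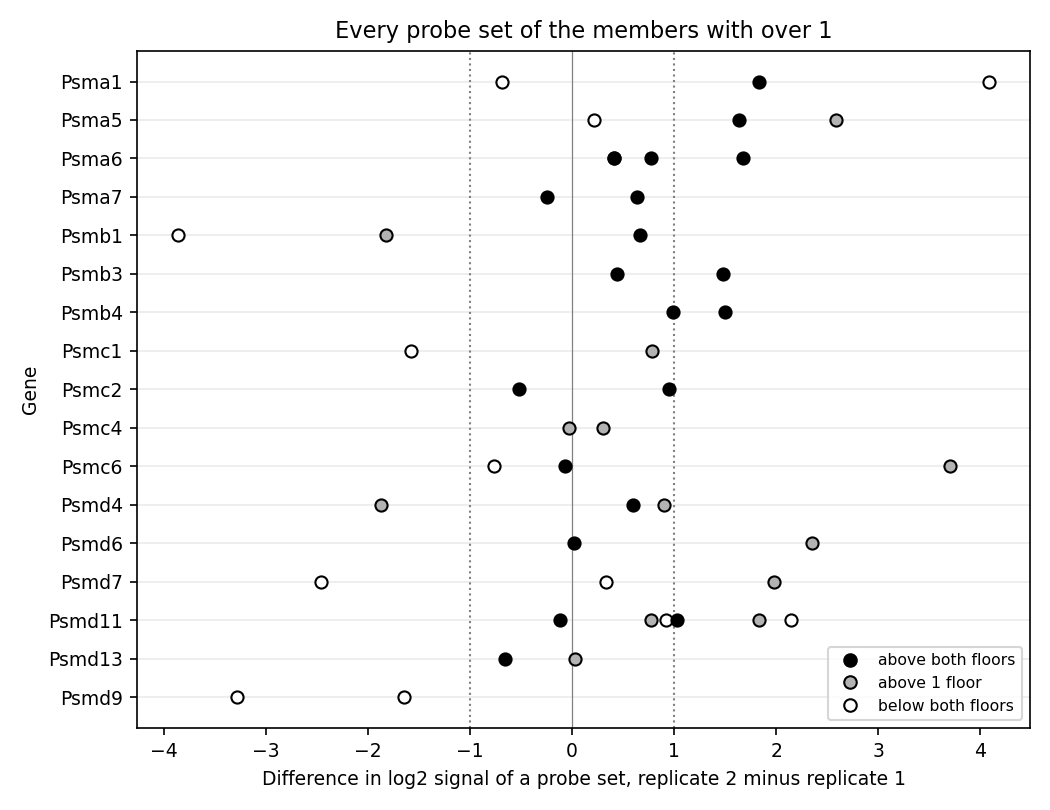
Difference in log2 signal (replicate 2 minus replicate 1) of every probe set of the 17 members with over 1, black above both floors, grey above 1 floor and white below both. Dotted lines mark a 2-fold difference; black points of Psma6, Psmb3 and Psmb4 lie on 1 side of 0, while those of Psma7, Psmc2 and Psmd11 lie on both sides.

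Genes that act with the proteasome were examined in 7 lists of 37 genes, of which 24 were measured and 13 were above both floors, against 28.9% of all genes. Over 2-fold differences were seen in 6 of these, of which 2 genes were higher on replicate 2, a share near the background of 14.8%, and 4 on replicate 1, against 14.3%. Their median difference was -0.50 as deposited, -0.55 after quantile normalization and 0.13 after centring. The median of all genes was -0.01, -0.13 and 0.62 in these settings. Psme4 and Ubqln1 were over 2-fold higher on replicate 2, and Psme1 and Nfe2l1 on replicate 1, under all 3 scalings. The inducible catalytic subunits were above both floors in 3 of 3 cases. Psmb8, which replaces Psmb5, gave 146 on replicate 2 against 417 on replicate 1, 2.86-fold higher on replicate 1. Psmb5, below the floor on replicate 1, read higher on replicate 2. Psmb9, which replaces Psmb6, gave 432 on replicate 2 and 257 on replicate 1. Psmb10, which replaces Psmb7, gave 507 on replicate 2 and 587 on replicate 1. Psmb9 and Psmb6 were both higher on replicate 2, and Psmb10 and Psmb7 both higher on replicate 1, Psmb7 being below both floors.

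Activators that cap the core in place of the regulatory particle differed in both directions. Psme1, a subunit of the interferon-inducible activator, gave 216 on replicate 2 against 816 on replicate 1, 3.78-fold higher on replicate 1. Psme4, a nuclear activator, gave 665 on replicate 2 against 273 on replicate 1, 2.44-fold higher on replicate 2. Of 5 measured chaperones of core assembly, 1 was above both floors and 5 were above that of replicate 2. This was Pomp, which is degraded by the core it matures, with 449.6 on replicate 2 and 819.5 on replicate 1. Among 6 receptors and deubiquitinases that bind the proteasome, 4 were above both floors. Ubqln1, a shuttle for ubiquitinated substrates, gave 918 on replicate 2 against 316 on replicate 1, 2.91-fold higher on replicate 2. Usp14, which trims ubiquitin chains at the base, gave 111.5 on replicate 2 against 257 on replicate 1, 2.30-fold higher on replicate 1. That probe set is of the _x_at type and the only one of the 3 for Usp14 above both floors. After quantile normalization or centring, Usp14 was not among the genes over 2-fold higher on replicate 1.

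Among the listed genes upstream of the proteasome, Vcp, Nfe2l1 and Ngly1 were above both floors, and Nfe2l1 differed most of these. Of 3 measured genes of ubiquitin activation and p97, 1 was above both floors, the p97 gene Vcp, whose product extracts ubiquitinated proteins, with 189 on replicate 2 and 268 on replicate 1. Nfe2l1, the transcriptional activator of subunit genes, gave 121 on replicate 2 against 413.5 on replicate 1, 3.42-fold higher on replicate 1. Ngly1, the deglycosylase that processes its product, gave 189.6 on replicate 2 and 293 on replicate 1. Nfe2l2, a related factor, passed only the floor of replicate 2, with 230.3 on replicate 2 and 172 on replicate 1. Nfe2l1 and most core genes differed in opposite directions between the samples, and 2 arrays allow no test of a relation.

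**Figure D5:**
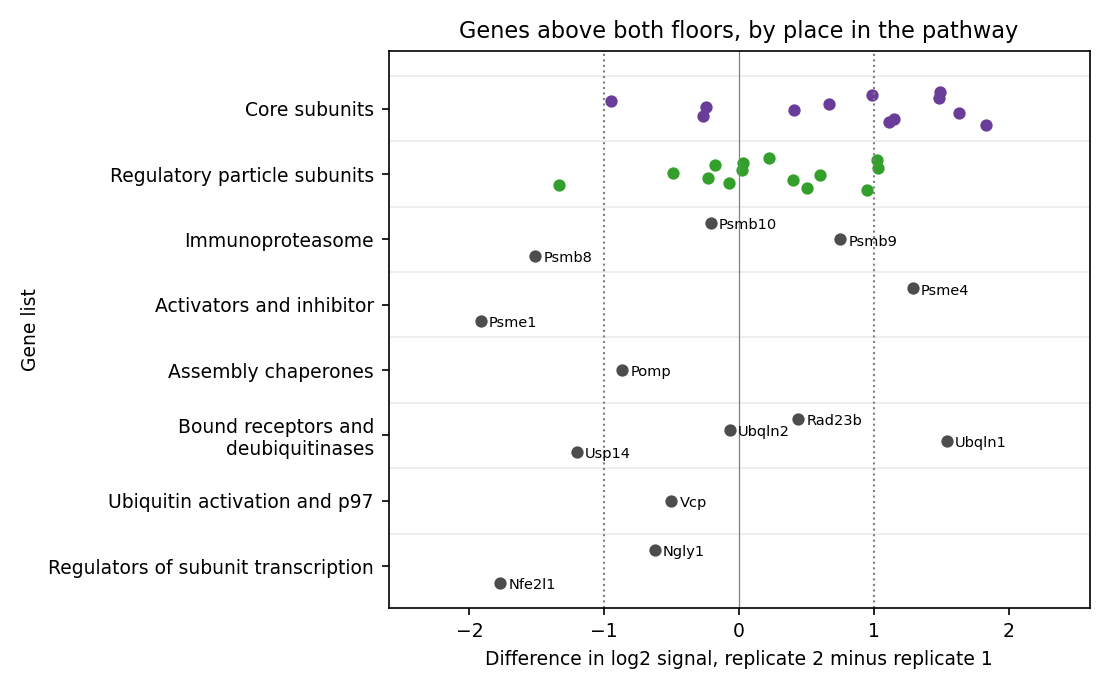
Difference in log2 signal (replicate 2 minus replicate 1) of genes above both floors, by list, with points spread vertically for legibility and dotted lines at a 2-fold difference. Core subunits lie mostly right of 0 with a median of 1.05, regulatory particle subunits about 0 with a median of 0.13, and Psme1, Nfe2l1, Psmb8 and Usp14 lie left of the 2-fold line.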

How the data were processed

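Each sample has 1 array, and the authors deposited linear signal intensities that came from MAS5, per the submitters' processing notes. Version and parameters are not given in the sources used here. Per the labels' protocols, biotinylated cRNA was made from total RNA. Without the lowest and highest 2% of signals the arrays averaged 150.1 (replicate 2) and 150.0 (replicate 1), so both had been scaled to a common target. Of 22690 probe sets, 64 controls were left out, and of the rest 20380 named 1 gene in the platform annotation, 691 several and 1555 none. All 35 members were found in RefSeq (GRCm38.p6) by Entrez identifier with the same symbol. Log2 signals were compared as deposited, in Python 3.11.15 with pandas 2.3.3, and the scripts were tested on simulated data. No p-value was computed, since 2 samples form 1 group, and no counts lie behind the values, so the number of arrays limits the precision. Every member is named, by a fixed rule, as are pathway genes over 2-fold apart and all inducible subunits; a few more were named after their values were seen. Members and lists were chosen with earlier results of these data known. The alternatives were other floors, scalings, a pseudocount of 32 and other summaries of probe sets.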

Additional observations from a re-analysis of the deposited data

How the results depend on the processing

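The counts of members above the floor were within 1.5 times of those reported with the floor at the 95th percentile or at the median of the array, under both scalings and without probe sets ending in _x_at. Read on 1 array at a time they ran from 26 to 32 for all members, 12 to 13 for the core and 14 to 19 for the regulatory particle. Members over 2-fold higher on replicate 2, 8 as reported, numbered 3 after quantile normalization, 15 after median centring and 6 with log2(signal + 32). The shares of all genes were 8.78%, 35.1% and 13.4% in these settings, and 14.8% as reported. Members over 2-fold higher on replicate 1, 1 as reported, numbered 4 with no floor, 2 with the mean over all probe sets and 0 after median centring. They numbered 0 in the brighter of 2 equal bins by signal, a setting added after seeing the data. The shares of all genes were 33.3%, 17.2%, 2.99% and 5.25% in these settings, in that order, and 14.3% as reported. The core median stayed above 0 under all 10 alternatives, but 0 is not a fixed reference. The median of all genes was -0.31 with no floor and 0.62 after median centring. Relative to that median, the core stood 1.06 higher as deposited and 0.58 higher after quantile normalization. The regulatory particle median turned to -0.031 after quantile normalization, against -0.13 for all genes. For single members, the difference of Psmc2 turned to -0.52 and that of Psmd13 to -0.65 without probe sets ending in _x_at, and that of Psmb1 to -1.67 with the mean over all probe sets, of which 2 of 3 were below a floor. The same mean moved Psmd6 from 0.02 to 1.18 and Psmc6 from -0.07 to 0.95, and turned Psmd4 from 0.60 to -0.13. The causes were not tested. Signals near the floor, as for Psmd13 and Psmc4, limit which members count as detected. No paired analysis was possible because the samples form 1 group.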
